A study of Drosophila melanogaster with 6 samples.

Results

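The genes described here make dopamine, pack and recover it, or turn it into the brown and black of the insect cuticle. They are ple, Ddc, Pu, e, b, y, Vmat and DAT of the fruit fly Drosophila melanogaster, taken as every probe set that the platform's annotation pairs with a single one of these genes. Of these 8 genes, 7 had such a probe set, 8 probe sets in all, out of 10844 genes on 13966 probe sets that were not controls. The exception was b, the aspartate decarboxylase that makes beta-alanine, which is not analysed here. Total RNA from sorted cells was measured on 6 one-colour expression arrays, and the cells of every array came from animals with 1 construct, the red fluorescent protein dsRed1 fused to a 2.1 kb promoter of Gad1, the glutamic acid decarboxylase gene. LB_pos was 1 array of the fluorescent fraction from larval brain and ventral nerve cord. LB_neg was 1 array of the non-fluorescent fraction from the same tissue. EC_pos was 4 arrays of fluorescent cells sorted from cultured embryonic cells, named a to d. No array held the non-fluorescent fraction of the culture. A promoter fragment may not label the same cells as the gene itself, and the sources used here give no strain, larval age or days in culture. The genes were selected on their intensities on these arrays, with the differences between the 3 groups known, so those values are a description.

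Dopamine is made in 2 steps. Tyrosine hydroxylase, encoded by ple, turns tyrosine into DOPA with the help of the cofactor tetrahydrobiopterin (BH4), and Ddc, dopa decarboxylase, turns DOPA into dopamine and also makes serotonin. Pu, GTP cyclohydrolase, catalyses the first step towards BH4. In neurons Vmat loads dopamine and other monoamines into vesicles and DAT takes dopamine back up from outside the cell. In the epidermis the same dopamine feeds the cuticle: e (ebony) joins it to beta-alanine for tan cuticle, y (yellow) is needed for black melanin, and oxidised products crosslink the cuticle proteins. Ebony is also known from glia, where it conjugates amines. In fly tissue the enzymes of the pathway are therefore shared between a small set of monoamine neurons and the epidermis.

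Intensities are linear values that were already scaled per array, and differences are given as log2(intensity + 53.6), where 53.6 is the 25th percentile of all intensities. The offset understates differences of dim genes. Tests covered the 9635 of 13966 probe sets brighter than 197.35, the median of all intensities, on 1 or more arrays. A gene that passed this filter only through the group where it was bright was tested because of that group. Nothing is read from its call in that direction. Gad1 itself was dim, at 54.8 on LB_pos and at most 39.0 on the other 5 arrays. Array a of EC_pos stood apart, with Pearson correlations of 0.588 to 0.707 to arrays b, c and d, which correlated at 0.908 to 0.944 with each other. The ratio of 3' to 5' signal of the GAPDH control was 866 on array a and between 8.90 and 42.4 on the other 5 arrays. That of eIF-4a was 40.1 on LB_pos, 120.3 on LB_neg, 640.3 on array a and 18.7 to 46.3 on EC_pos b to d, while that of actin was 58.3 on LB_pos and 29.5 on LB_neg. Array a is therefore left out in a second value where EC_pos is involved. Separate cultures are not stated for the EC_pos arrays, and their spread, on which every p-value here rests, may be technical. Precision is limited by how few arrays there are. LB_pos and LB_neg had no replicates.

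The gene of the first enzyme, ple, was bright in culture and dim in the larval nervous system. Its probe set 143559_at was at 145.1 on LB_pos, 46.0 on LB_neg, and 346.3, 2491.4, 4073.5 and 4885.4 on EC_pos arrays a to d (EC_pos mean 2949 ± 2000, SD, n = 4). On LB_neg it lay below the 25th percentile of all intensities. All 4 culture arrays were above both larval arrays, and array a was far below the other 3.

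Pu, which supplies the cofactor of ple, showed the same order of groups with a narrower spread. The probe set 154812_at was at 288.7 on LB_pos, 104.7 on LB_neg, and 2225.6, 1052.5, 1240.4 and 1429.3 on EC_pos a to d (mean 1487 ± 516, SD, n = 4). Array a was the brightest here, whereas it was the dimmest for ple.

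Ddc differed from both in being bright on LB_pos as well. The probe set 152611_at was at 4586.3 on LB_pos, 438.4 on LB_neg, and 5312.2, 6537.2, 12229.5 and 13811.5 on EC_pos a to d (mean 9473 ± 4177, SD, n = 4). LB_pos lay just below the dimmest culture array, and LB_neg lay far below all of them.

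Of the tanning genes, e resembled Ddc and y resembled Pu. For e, the probe set 152932_at was at 368.9 on LB_pos, 59.7 on LB_neg, and 405.8, 384.0, 636.1 and 863.1 on EC_pos a to d (mean 572 ± 225, SD, n = 4). LB_pos was close to arrays a and b, and LB_neg was barely above the 25th percentile of all intensities. For y, the probe set 143416_at was at 294.9 on LB_pos, 78.7 on LB_neg, and 1832.9, 1071.3, 1086.5 and 1067.3 on EC_pos a to d (mean 1265 ± 379, SD, n = 4). Arrays b, c and d were nearly equal for y, at 1075 ± 10.1 (SD, n = 3), and array a was higher.

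The transporter genes did not follow the synthesis and tanning genes. Vmat has 2 probe sets. The brighter, 152678_at, was at 3108.7 on LB_pos, 773.2 on LB_neg, and 616.5, 2632.2, 1466.4 and 1673.3 on EC_pos a to d (mean 1597 ± 828, SD, n = 4). LB_pos was above every culture array and LB_neg lay within their range, above array a and below the others. The other Vmat probe set, 147158_at, was between 5.4 and 64.6 on the 6 arrays, too dim to be tested. DAT, on 147316_at, was at 370.8 on LB_pos, 189.0 on LB_neg, and 84.1, 133.2, 181.7 and 169.1 on EC_pos a to d (mean 142 ± 43.7, SD, n = 4). Both larval arrays were above all 4 culture arrays, LB_neg by a small margin over array c. DAT passed the filter through LB_pos alone, and ple passed it through EC_pos alone.

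**Figure D1:**
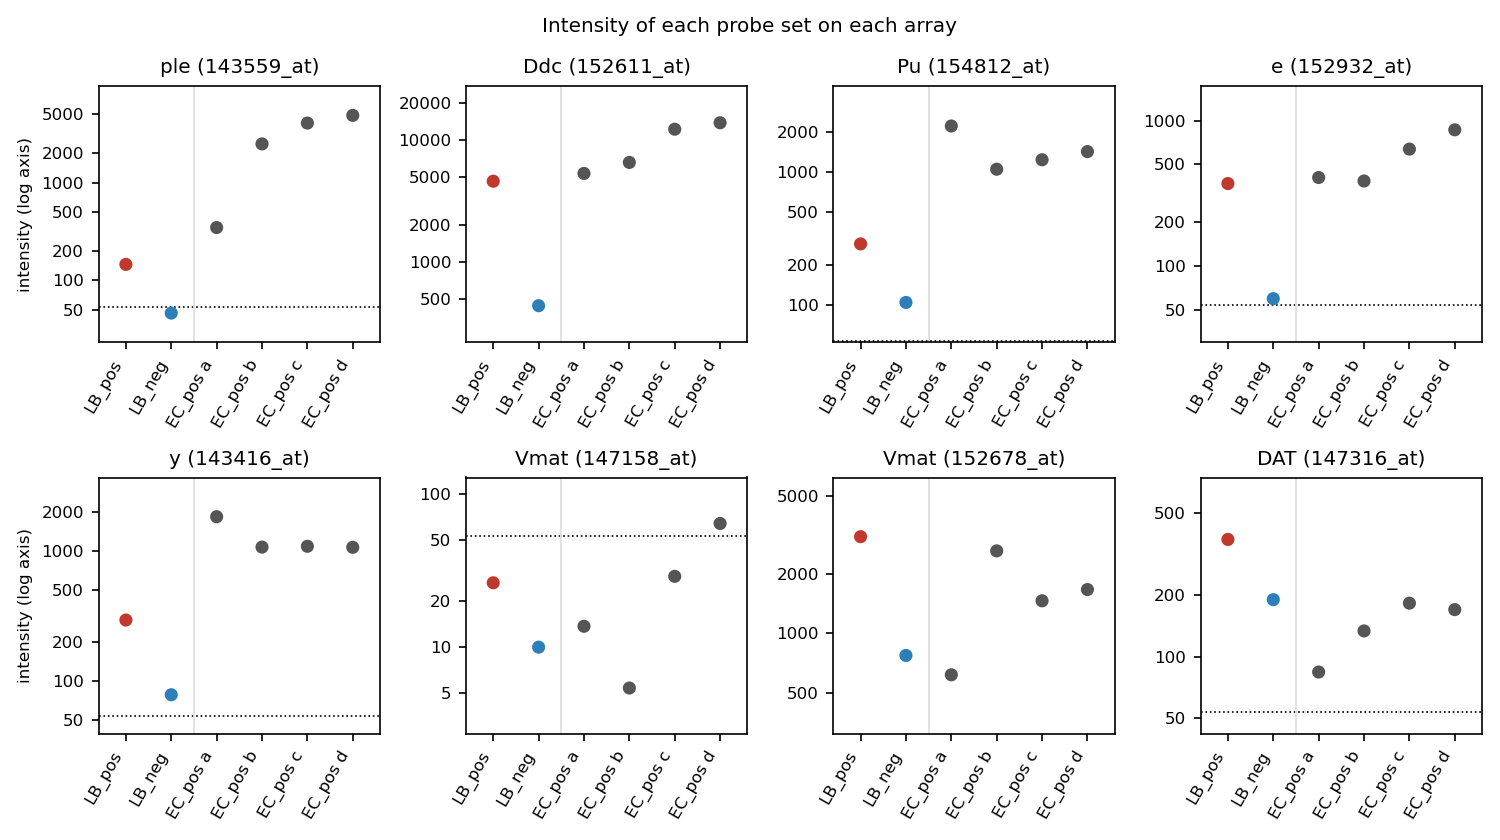
Intensity (log axis, 1 panel and 1 scale per probe set) on LB_pos (red), LB_neg (blue) and the 4 EC_pos arrays (grey), with the 25th percentile of all intensities, 53.6, as a dotted line where it falls within the panel. For ple, Ddc, Pu, e and y both larval points lie below all 4 EC_pos points, while Vmat (152678_at) and DAT are brightest on LB_pos.

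The larval pair asks which transcripts differ between cells with and without the reporter in 1 tissue. All 7 genes were brighter on LB_pos than on LB_neg, as were 56.0% of all tested probe sets. LB_neg was the dimmest of all 6 arrays for ple, Ddc, Pu, e and y, as it was for 19.8% of all tested probe sets. The part of RNA quality, with the higher eIF-4a ratio on LB_neg, was not tested. Ddc differed most, by 3.24 log2 units, an intensity ratio of 10.5. Vmat differed by 1.94 and e by 1.90, ratios of 4.02 and 6.18. The differences of y and Pu were 1.40 and 1.11. For ple the difference was 0.996, with the LB_neg value below 53.6, and for DAT it was 0.81. Thus 5 of 7 genes, Ddc, Vmat, e, y and Pu, were at least 1 log2 unit higher on LB_pos, where 11.8% of all tested probe sets (1137 of 9635) were that much higher and 7.38% (711) that much lower. That split depended on scaling, with 809 higher and 925 lower after quantile normalization and 687 higher and 1358 lower with a common median. Over all tested probe sets the median difference was 0.11. Quantile normalization put it at -0.02 and a common median at -0.185. Under these scalings 4 of the 7 genes, Ddc, e, y and Vmat, remained at least 1 unit higher, and Pu was at 0.85 under each. No direction of the 7 genes changed under either scaling, where DAT was at 0.61 and 0.52. In RNA from many cells, fewer cells of a type and less RNA per cell cannot be told apart.

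Neuron and glia markers did not lie one way between the larval arrays. Of 5 tested neuron markers, 3 were at least 1 log2 unit higher on LB_pos and 1, elav, was lower, and their summed intensity was 12548 on LB_pos and 12967 on LB_neg. Of 8 glia markers, 0 were at least 1 unit higher and 1, gcm, was lower, with sums of 3331 on LB_pos and 6574 on LB_neg. Without gcm the glia sums were 2831 on LB_pos and 2660 on LB_neg, of which loco (152188_at) made up 1575.4 and 1135.4. By any amount 4 of the 8 glia markers were higher on LB_pos, while repo was at -0.88, wrapper at -0.87 and nrv2 at -0.80. Of 9 tested epidermis and cuticle markers, 2 (kkv, a chitin synthase, and serp, a chitin deacetylase) were at least 1 unit higher and 1, the cuticle protein gene Cpr67B, was lower, with sums of 3864 on LB_pos and 2341 on LB_neg. Of 9 tested hemocyte markers, 1 (eater) was at least 1 unit higher on LB_pos and 3 (Hml, Pxn and PPO1) were that much lower, with a list median of -0.50 and sums of 2246 on LB_pos and 3220 on LB_neg. No marker was listed at 0 on any array. The part of these cell types in the larval differences of the 7 genes was not tested.

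The larval arrays were then set against the culture, a comparison of cells from different sources. Stage (embryo or larva) cannot be told apart from source (culture or tissue). LB_neg also differs from EC_pos in being the non-fluorescent fraction, which cannot be told apart from stage and source in that comparison. Both comparisons share the EC_pos arrays, and each single larval array was given the spread of EC_pos. Values of ple, Pu, Ddc, e and y lay below the whole range of EC_pos on both larval arrays, which held for 18.7% of tested probe sets on LB_pos and 24.7% on LB_neg. Vmat and DAT lay above that range on LB_pos, as did 34.7% of probe sets, and DAT also on LB_neg (30.0%). Of these values ple differed most. It was -3.43 ± 1.32 (SE) log2 units on LB_pos relative to EC_pos and -4.23 ± 0.43 without array a. On LB_neg it was -4.42 ± 1.32 and -5.23 ± 0.43 without array a. Pu was -2.12 ± 0.56 on LB_pos (-1.91 ± 0.37 without array a) and -3.23 ± 0.56 on LB_neg (-3.02 ± 0.37). The values of y were -1.88 ± 0.52 on LB_pos (-1.70 ± 0.36 without array a) and -3.28 ± 0.52 on LB_neg (-3.09 ± 0.36). Leaving out array a thus moved ple away from 0, and Pu and y slightly towards it.

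Ddc and e lay nearer to the culture on LB_pos than on LB_neg. Ddc was -0.93 ± 0.72 on LB_pos and -4.16 ± 0.72 on LB_neg, and e was -0.50 ± 0.58 on LB_pos and -2.40 ± 0.58 on LB_neg. Without array a, Ddc was -1.16 ± 0.43 on LB_pos and -4.40 ± 0.43 on LB_neg. Likewise e was -0.63 ± 0.48 on LB_pos and -2.52 ± 0.48 on LB_neg. Vmat was 1.10 ± 0.78 on LB_pos (0.72 ± 0.39 without array a) and -0.83 ± 0.78 on LB_neg (-1.21 ± 0.39). DAT was 1.15 ± 0.53 on LB_pos (0.99 ± 0.42 without array a) and 0.34 ± 0.53 on LB_neg (0.18 ± 0.42). With all arrays, limma called 0 of the 7 genes at an adjusted p under 0.05 on either larval array, where 0.0311% of tested probe sets were called on LB_pos (0.0104% higher and 0.0208% lower, and 13.5% at an unadjusted p under 0.05) and 0.54% on LB_neg (0.0727% higher and 0.467% lower, and 17.4% unadjusted). Without array a, ple, Pu and y were called lower on LB_pos, where 8.61% of probe sets were called lower, and ple, Ddc, Pu, e and y were called lower on LB_neg, where 12.6% were. The choice of genes used these contrasts, so nothing is read from these counts.

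Epidermis and cuticle markers also summed lower on the larval arrays. The 9 tested summed to 3864 on LB_pos, 2341 on LB_neg and 6391 to 53030 in EC_pos. Much of the sums on EC_pos b, c and d was Cpr67B, at 12395.8, 24146.8 and 29435.7. On LB_pos kkv, knk, serp, Cht2 and Cpr64Ad lay within the range of EC_pos, and on LB_neg Cht2 did. The filter was passed by Gasp through EC_pos alone. With all arrays limma called 0 of the 9 (3 at an unadjusted p under 0.05 on LB_pos and 5 on LB_neg). Without array a it called 6 lower on LB_pos and 8 lower on LB_neg, among them knk, serp, verm, Cpr67B, Gasp and obst-A on both. Hemocyte markers, 9 tested, summed to 2246 on LB_pos, 3220 on LB_neg and 3843 to 8893 in EC_pos. Members of that list went both ways: without array a, Pxn was called higher and PPO1, vkg and Col4a1 lower on LB_pos, and Hml and Pxn were called higher and PPO2 and vkg lower on LB_neg. Hml, at 745.7, and Pxn, at 515.0, were brighter on LB_neg than on any culture array. The filter was passed by vkg through EC_pos alone.

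Neuron markers summed higher on the larval arrays than on EC_pos arrays b, c and d. The 5 tested summed to 12548 on LB_pos, 12967 on LB_neg and 3197 to 8915 on those 3 arrays. On array a the sum was 24222, of which the vesicle protein gene Csp made up 22709.5. Without Csp the sums were 8510 on LB_pos, 7613 on LB_neg and 1513 to 6013 on all 4 EC_pos arrays. On LB_pos elav, nSyb and futsch lay above all 4 culture arrays, and the list median against EC_pos was 2.11 on LB_pos and 0.93 on LB_neg. Without array a nSyb was called higher on LB_pos and elav higher on LB_neg. Among glia markers gcm was 4.96 log2 units on LB_neg relative to EC_pos (5.18 without array a) and 2.115 on LB_pos (2.34). It passed the filter through the larval arrays alone. Without array a Indy was -2.98 on LB_pos and -3.18 on LB_neg, and Indy passed the filter through EC_pos alone. The part of these cell types in the values of the 7 genes was not tested.

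**Figure D2:**
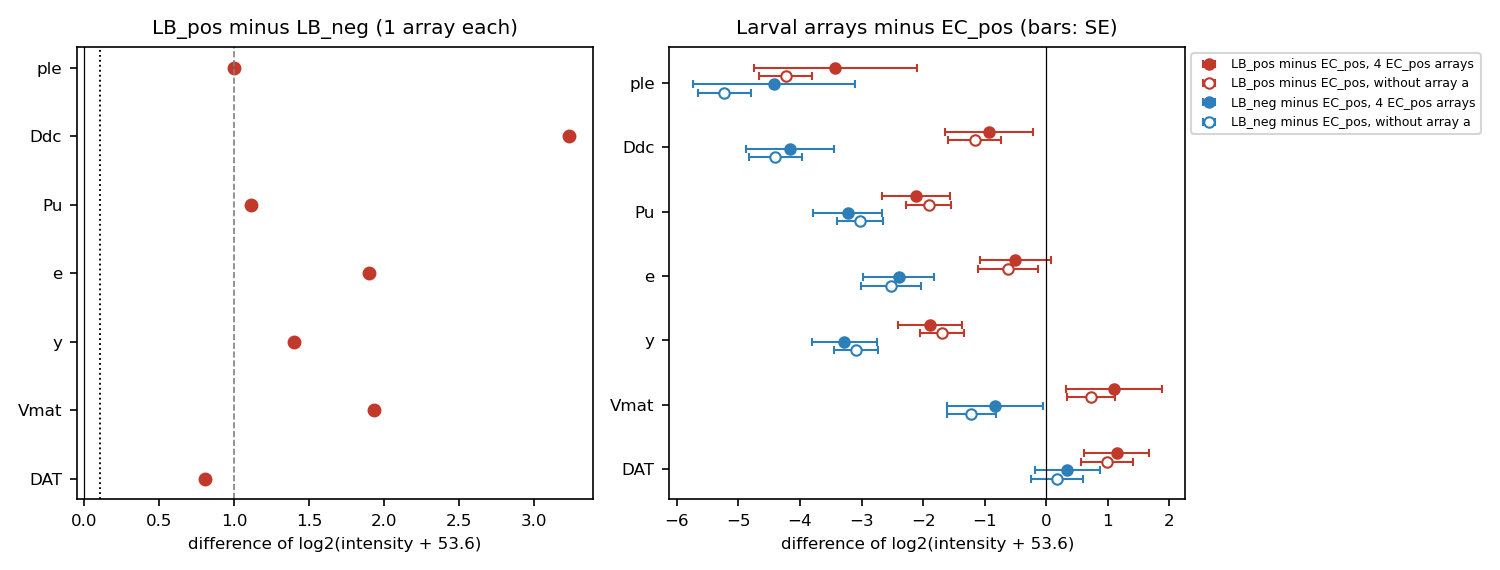
Differences of log2(intensity + 53.6) for the 7 genes with a tested probe set. Left, LB_pos minus LB_neg, 1 array each, with the median of all tested probe sets dotted at 0.11 and 1 log2 unit dashed. Right, LB_pos (red) and LB_neg (blue) minus EC_pos, filled with 4 EC_pos arrays and open without array a, bars showing the SE. Ddc is the farthest to the right on the left panel at 3.24, and ple the farthest to the left on the right panel.

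Other genes of dopamine, BH4 and tanning were taken as lists by function. Of 52 listed genes 45 had a probe set and 36 were tested. In the larval pair 25 of these 36 were higher on LB_pos, where 56.0% of all tested probe sets were. At least 1 log2 unit separated the larval arrays for 13 of them, 10 higher and 3 lower on LB_pos (11.8% and 7.38% of all tested probe sets), and the median was 0.55 against 0.11 over all tested probe sets. After quantile normalization 1 amine gene, 2 regulators and 0 yellow family genes were that much higher, where 2, 3 and 1 had been. The filter was applied again after that scaling, and 5 cofactor genes were tested rather than 4. Of these 5, 1 was that much lower, where 0 had been. Quantile normalization left the dopamine receptor and tanning counts unchanged. In the test against EC_pos with all arrays, limma called 0 of 36 on LB_pos (9 at an unadjusted p under 0.05) and 1 on LB_neg, lower (8 unadjusted). Without array a, 1 was higher and 7 lower on LB_pos (percent called 5.49% and 8.61%), and 1 higher and 10 lower on LB_neg (10.6% and 12.6%).

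The 1 gene called with all arrays was yellow-b, a relative of y. It was at 112.9 on LB_pos, 19.7 on LB_neg, and 2160.1, 2527.6, 2764.2 and 2997.1 on EC_pos a to d. All culture arrays agreed within a narrow range and both larval arrays were far lower. The difference of LB_neg to EC_pos was -5.18 ± 0.47 (SE), and that of LB_pos was -3.99 (-4.08 without array a). The filter was passed through EC_pos alone by yellow-b, and by its relatives yellow-d, yellow-f2 (142350_at) and yellow-h. Of 13 listed yellow family genes 8 were tested. Without array a, 3 were called lower on LB_pos (yellow-b, yellow-d and yellow-f2), and these and yellow-h were called lower on LB_neg. Between the larval arrays yellow-b was 1.18 higher on LB_pos and yellow-d 1.21 lower, at 53.2 on LB_pos against 193.6 on LB_neg. The third largest difference of the family was yellow-h, 0.44. The family median between the larval arrays was 0.10, but -0.35 when arrays were quantile normalized and -0.31 when they were given a common median. Under each of these scalings 7 genes of the family passed the filter, rather than 8. The enzymes yellow-f and yellow-f2, which convert dopachrome, differed from each other: yellow-f was at 621.2 on LB_pos, 460.4 on LB_neg and between 380.7 and 758.9 in EC_pos, and yellow-f2 (142350_at) at 157.3 on LB_pos, 183.2 on LB_neg and between 318.8 and 1217.8 in EC_pos.

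**Figure D3:**
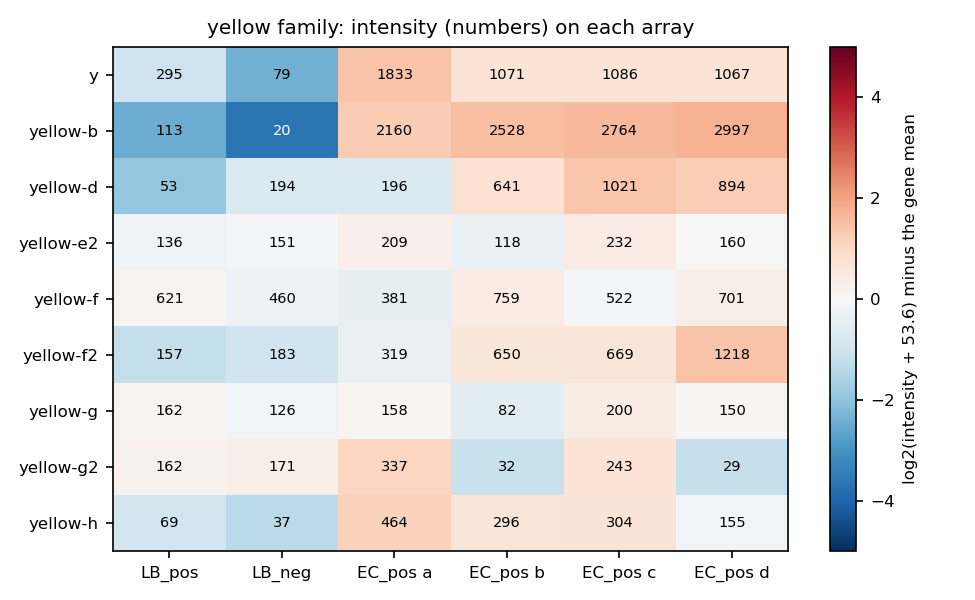
Rows are y and the 8 tested genes of the yellow family, columns the 6 arrays. Numbers are intensities and colour is log2(intensity + 53.6) minus the mean of that gene over the arrays. Both larval cells of y, yellow-b and yellow-d are blue, and the cells of EC_pos b, c and d are red. On array a, y and yellow-b are red as well, y the most of its row at 1832.9, and yellow-d is blue.

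The genes that supply beta-alanine and oxidise catechols were measured in the tanning and melanin list, 8 of 12 tested. The uracil pathway gives beta-alanine, the partner of dopamine in the ebony reaction. Its first enzyme, su(r), was at 63.0 on LB_pos, 19.6 on LB_neg, and 217.7, 803.5, 1619.8 and 1571.7 on EC_pos a to d. Relative to EC_pos it was -2.94 log2 units on LB_pos (-3.51 without array a) and -3.61 on LB_neg (-4.18). It passed the filter through EC_pos alone. The last enzyme, pyd3, was at 340.7 on LB_pos, 45.2 on LB_neg and between 376.6 and 791.2 in EC_pos, 1.997 log2 units higher on LB_pos than on LB_neg. Like Ddc and e, pyd3 was thus bright on LB_pos and in EC_pos and dim on LB_neg. CRMP, which holds the middle step, was at 5237.0 on LB_pos, 7187.1 on LB_neg, 9327.3 on EC_pos a and 1056.1 to 2876.2 on the other culture arrays. It was called higher on LB_neg without array a (limma adjusted p = 0.0197).

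Among the oxidases, PPO1, a blood cell prophenoloxidase, was at 20.1 on LB_pos, 287.9 on LB_neg, 1516.8 on EC_pos a and at 202.2 to 234.1 on the other culture arrays. The larval difference was -2.21, the reverse of the 7 genes. PPO2 (142220_at) was -1.79 log2 units on LB_neg relative to EC_pos without array a. In that comparison Mco1, a multicopper oxidase, was -2.10 on LB_pos and -2.74 on LB_neg, and Mco1 passed the filter through EC_pos alone. Laccase 2, encoded by stw, was dim throughout, at 56.3 on LB_pos, 124.4 on LB_neg and between 95.0 and 222.0 in EC_pos. The tan gene t, which reverses the ebony reaction, was between 11.3 and 39.4 on all arrays and was not tested.

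Of 7 listed cofactor genes, 4 were tested and limma called 0 against EC_pos, with or without array a. At an unadjusted p under 0.05 there were 0 with all arrays, and without array a 1 on LB_pos and 0 on LB_neg. Pcd, which recycles BH4, was at 1027.2 on LB_pos, 238.5 on LB_neg, and 33.2, 427.1, 281.8 and 552.6 on EC_pos a to d, 1.89 log2 units higher on LB_pos than on LB_neg. The second enzyme of BH4 synthesis, pr, was at 634.4 on LB_pos, 488.8 on LB_neg and between 245.2 and 496.9 in EC_pos. Dhpr, another recycling enzyme, was at 895.3 on LB_pos, 690.4 on LB_neg and between 392.4 and 1657.8 in EC_pos. The eye pigment gene cl was at 2369.1 on LB_pos, 2220.7 on LB_neg, and 10881.7, 4349.6, 2732.8 and 3410.6 on EC_pos a to d. As for Pu, both larval arrays lay below all culture arrays and array a was the brightest. The larval differences were 0.34 for pr, 0.35 for Dhpr and 0.09 for cl, against 1.11 for Pu.

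Of 5 tested amine genes, 4 were brighter on LB_pos than on LB_neg, where 56.0% of all tested probe sets were. The largest difference was that of prt (portabella), a transporter related to Vmat, which was at 532.1 on LB_pos, 44.5 on LB_neg and between 13.8 and 59.4 in EC_pos. It was 2.58 log2 units higher on LB_pos than on LB_neg, and 2.72 higher on LB_pos than in EC_pos (2.59 without array a). It passed the filter through LB_pos alone. SerT, which takes up serotonin, was at 340.8 on LB_pos, 135.9 on LB_neg, 35.7 on EC_pos a and at 267.0 to 287.1 on the other culture arrays. Tdc1, a tyrosine decarboxylase, was at 301.5 on LB_pos, 132.4 on LB_neg, and 649.7, 1963.6, 3062.4 and 4525.1 on EC_pos a to d. It was called lower on both larval arrays without array a (limma adjusted p = 0.00423 on LB_pos and 0.000855 on LB_neg), and its order of arrays was that of ple.

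All 3 tested dopamine receptor genes were brighter on LB_pos than on LB_neg, as were 56.0% of all tested probe sets. Their median was 1.54, against 0.11 over all tested probe sets. Dop1R1 was at 418.9 on LB_pos, 89.9 on LB_neg and between 48.1 and 151.1 in EC_pos, and passed the filter through LB_pos alone. DopEcR, which also binds ecdysteroids, was at 526.3 on LB_pos, 145.8 on LB_neg and between 197.0 and 346.5 in EC_pos. Dop2R (145409_at) was at 792.2 on LB_pos, 416.0 on LB_neg and between 269.0 and 732.6 in EC_pos. Against EC_pos limma called 0 of the 3, with or without array a. With all arrays the differences of LB_pos to EC_pos were 1.80 for Dop1R1, 0.93 for Dop2R and 0.77 for DopEcR. Those of LB_neg were 0.08, 0.08 and -0.77.

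Regulators and hormones of tanning were mixed in the larval pair, 3 of 8 at least 1 log2 unit higher on LB_pos and 1 lower (11.8% and 7.38% of all tested probe sets). Quantile normalization left 2 of 8 higher. Hr38, a nuclear receptor known to act on Ddc in the epidermis, was at 404.2 on LB_pos, 14.8 on LB_neg and between 107.0 and 240.1 in EC_pos, a larval difference of 2.74. The POU factor vvl, which binds the Ddc gene, went the other way, at 81.1 on LB_pos and 291.5 on LB_neg. Eh, the eclosion hormone, was at 350.7 on LB_pos and 108.4 on LB_neg. For grh, an activator of Ddc and ple in the epidermis, the values were 162.8 on LB_pos, 168.9 on LB_neg and between 197.7 and 398.0 in EC_pos. Against EC_pos, limma called 0 of the 8 with all arrays (0 unadjusted on LB_pos and 1 on LB_neg). Without array a Hr38 alone was called, lower on LB_neg (limma adjusted p = 0.0381).

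**Figure D4:**
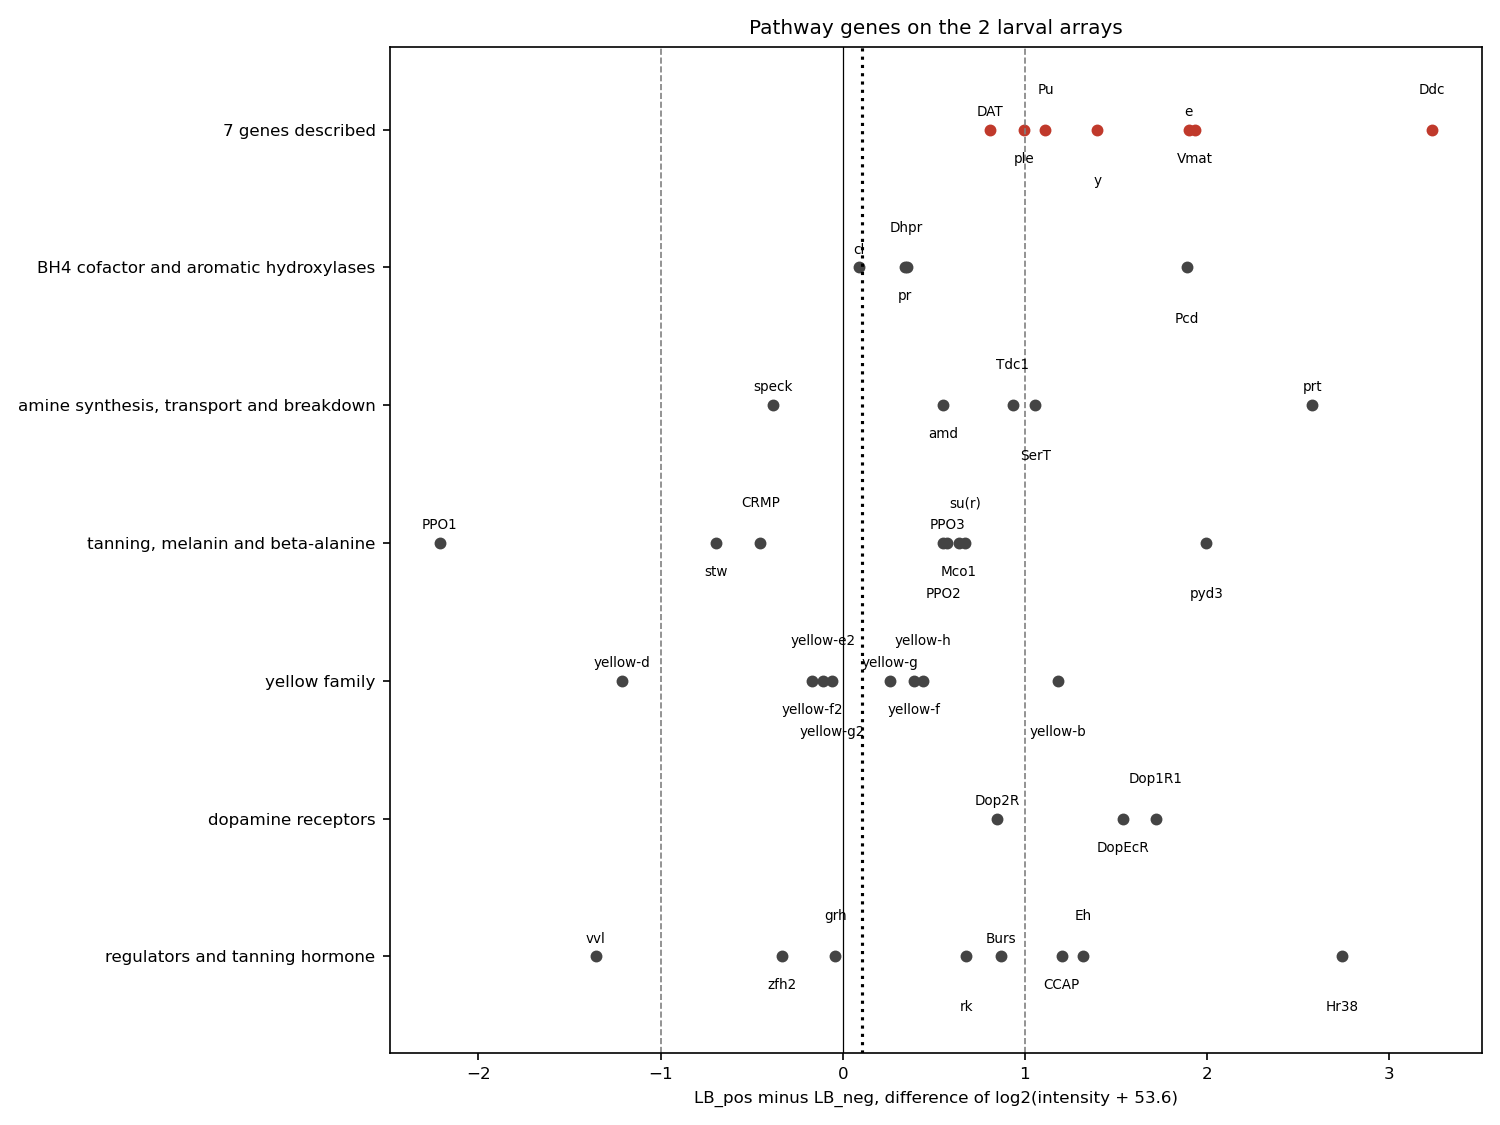
LB_pos minus LB_neg, as a difference of log2(intensity + 53.6), for the 7 genes and the tested genes of the pathway lists, marker lists not shown (brightest probe set). Dotted, the median of all tested probe sets, 0.11; dashed, 1 log2 unit in each direction. All 7 genes described lie right of the median, as do the 3 dopamine receptor genes, and of the genes plotted PPO1 lies farthest left at -2.21.

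Within the culture group the 7 genes divided by array. The difference of array a to the mean of b, c and d was -3.22 log2 units for ple, -1.52 for Vmat, -0.95 for Ddc, -0.64 for DAT and -0.50 for e, but 0.83 for Pu and 0.74 for y. Array a was the dimmest of the 4 for ple, Ddc, Vmat and DAT, as for 40.3% of all tested probe sets, and the brightest for Pu and y, as for 37.3%. The difference of array b to the mean of c and d was -0.99 for Ddc, -0.86 for e, -0.83 for ple, -0.325 for Pu and -0.29 for DAT. It was 0.73 for Vmat and -0.01 for y. Array b was below both c and d for 5 of the 7 genes, as for 37.1% of all tested probe sets. All tested probe sets had a median of -0.01 for this difference.

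Epidermis and neuron markers also differed between these arrays. Epidermis and cuticle markers summed to 6391 on array a, 27242 on b, 43973 on c and 53030 on d. Of the 9 tested, 7 were lower on b than on both c and d (37.1% of all probe sets were) and 6 were dimmest on a. The deacetylase gene serp was at 47.4, 1768.8, 4548.6 and 6792.4 on a to d, and Cpr67B at 1069.2, 12395.8, 24146.8 and 29435.7. Both follow the order of arrays seen for ple and Ddc. Neuron markers ran the other way between b and the pair c and d: all 5 tested were higher on b (37.8% of probe sets were), with elav at 664.7 on b, 595.1 on c and 299.6 on d and nrv3 at 3813.4 on b, 1231.4 on c and 1395.1 on d. Vmat was likewise highest on b, whereas DAT was at 133.2 on b, 181.7 on c and 169.1 on d. On array a elav was at 59.8. Ratios of 3' to 5' signal also set array b apart from c and d. They were 72.5 on b, 19.5 on c and 20.2 on d for actin, and 42.4, 17.7 and 15.3 for GAPDH. For eIF-4a they were 46.3 on b, 23.6 on c and 18.7 on d. The 18S rRNA control went the other way, at 8.13 on b, 11.0 on c and 19.7 on d. How far the makeup of the sorted cells or RNA quality enters the values of the 7 genes was not tested.

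**Figure D5:**
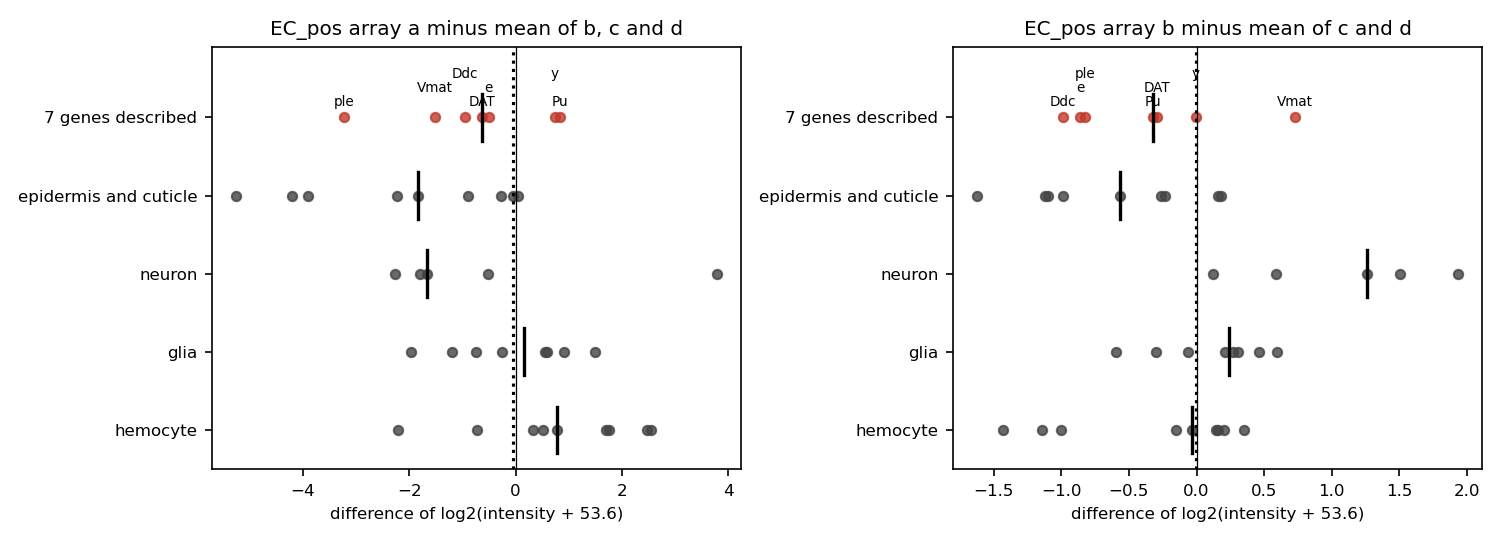
Differences between EC_pos arrays on the scale of log2(intensity + 53.6), array a minus the mean of b, c and d (left) and array b minus the mean of c and d (right). Each point is a gene, black bars are list medians and the dotted line is the median of all tested probe sets. On the right, ple, Ddc, e, Pu and DAT lie left of 0 with most epidermis and cuticle markers, and Vmat lies right of 0 with the neuron markers.

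Over the 6 arrays the profiles of the genes formed pairs. Pearson's r was 0.990 between Ddc and e and 0.993 between Pu and y, and it was 0.990 and 0.991 without array a. Between ple and Pu it was 0.718 with all arrays and 0.988 without array a. Other synthesis and tanning genes were alike too, with r of 0.843 between ple and Ddc and 0.839 between Ddc and y. Vmat and DAT had r of 0.623, but 0.337 without array a, where Vmat had r of 0.588 with Ddc. DAT had r below 0 with ple, Ddc, Pu, e and y. These are descriptions over 6 points in 3 groups, which share group and array effects. Among 6798 other genes, those most like each gene were CG6415 and slf for ple (r = 0.9987 and 0.9982), QC and CG17109 for Ddc (0.9966 and 0.9952), and CG4269 and frac for Pu (0.9976 and 0.9938). For e they were btsz and QC (0.9912 and 0.9909), and for y CalpB and snu (0.9973 and 0.9938). For Vmat they were l(3)87Df and CG31221 (0.9834 and 0.9817), and for DAT dpr3 and vls (0.9937 and 0.9869). QC, the gene shared by Ddc and e, was at 356.3 on LB_pos, 7.9 on LB_neg, and 336.9, 441.3, 658.1 and 878.2 on EC_pos a to d. Without array a, 2 of these 14 remained among the nearest, QC for Ddc and btsz for e.

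Genes next to these on the chromosome were compared in the larval pair. Of 14 protein-coding neighbours, the nearest on each side in RefSeq's annotation, 9 were tested and 1, CG4945 beside DAT, was at least 1 log2 unit higher on LB_pos (1.26, beside 0.81 for DAT). Of the 3 too dim to be tested, CG13330 beside Vmat was at 113.5 on LB_pos and 11.5 on LB_neg, and Syn2 beside DAT at 50.4 on LB_pos and 9.8 on LB_neg. The neighbours of Ddc, CG10561 and Phb1, differed by 0.17 and -0.19 between the larval arrays, where Ddc itself differed by 3.24.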

How the data were processed

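The authors deposited 1 linear intensity per probe set and array for 14010 probe sets, scaled per array before deposit: without the lowest and highest 2% the mean lay between 500.063 and 500.083 on every array. The scaling software and genome build: not given in the sources used here. Groups came from the sample titles. The 44 control probe sets were left out. Symbols of the platform annotation (12443 probe sets with 1 gene, 327 with several, 1196 with none) were updated through gene identifiers of RefSeq's annotation of the Release 6 assembly, for 12394 probe sets. A gene with several probe sets was represented by the brightest. Group means were fitted over all 9635 tested probe sets with limma 3.58.1 in R 4.3.3 (eBayes with trend, Benjamini-Hochberg adjustment, calls at an adjusted p under 0.05). The fit had 3 residual degrees of freedom with all arrays and fewer without array a, all from EC_pos. It was also tried on simulated data with 1 common spread, which cannot show how it treats an array like a. The larval pair was compared as a plain log2 difference.

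The genes and lists were chosen with earlier results of these data known. Named were the 7 genes, list genes called in a contrast, the 3 of each list with the largest larval difference, and for each of the 7 genes the 2 with the highest Pearson correlation among genes spanning at least 1 log2 unit. Genes called without array a, and yellow-f, stw, t, grh, CRMP and the markers, were named after their values were seen. Alternatives tried were 10th and 50th percentile offsets, other filters, quantile normalization, a common median, eBayes without trend and leaving out each EC_pos array. Lists of markers and likeness without array a, and marker sums without gcm or Csp, were added after seeing the data.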

Additional observations from a re-analysis of the deposited data

Results flagged for a closer look

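In the EC_pos group of 4 arrays, 1 array lay far from the other 3 for 7 of the 65 probe sets checked, those of 64 named genes. By chance about 1 in 20 groups shows such a gap. On array a, y was at 1832.9 against 1067.3 to 1086.5 on the others, PPO1 at 1516.8 against 202.2 to 234.1, Pxn (a hemocyte peroxidasin) at 411.6 against at most 38.5, gcm at 150.6 against 52.7 to 61.8, and CG4269 at 655.2 against 297.8 to 351.2. SerT was low on array a, at 35.7 against 267.0 to 287.1. On array b the neuron marker nrv3 was at 3813.4 against 1231.4 to 1395.1.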

How the results depend on the processing

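For the 7 genes, all 29 alternative values of the larval difference, all 57 of LB_pos against EC_pos and all 57 of LB_neg against EC_pos kept their direction. The count of genes at least 1 log2 unit higher on LB_pos was 3 of 7 with the offset at the 50th percentile and 6 of 7 at the 10th. Of 9635 tested probe sets, 469 were that much higher and 347 that much lower with the offset at the 50th percentile, 816 in all. At the 10th percentile 1445 were that much higher and 885 that much lower. Probe sets called on LB_pos against EC_pos, 3 as reported, numbered 12 and 0 (1400 at an unadjusted p under 0.05 in limma) with offsets at the 10th and 50th percentile, 6 without a filter and 7 after quantile normalization. On LB_neg, 52 as reported, they numbered 161 and 7 with those offsets. Leaving out each EC_pos array gave 0 to 1359 calls on LB_pos and 0 to 2231 on LB_neg: the highest were without array a. With b left out the calls were 0 on both (866 on LB_pos and 1203 on LB_neg at an unadjusted limma p under 0.05), and so they were with c (780 and 1149) or d (818 and 1216) left out. The cause was not tested. Of 110 alternative list medians 98 kept their sign, and the other 12 had a reported median between -0.24 and 0.38. No paired analysis was possible because the larval groups have 1 array each.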

Other observations

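Probe sets of 1 gene disagreed for several genes of the pathway. For amd, a relative of Ddc needed for cuticle, the probe set 143066_at was at 32.4 on LB_pos, 18.8 on LB_neg, 38.0 on EC_pos a and 269.2, 159.6 and 216.9 on b, c and d. The brighter 146479_at was at 739.5 on LB_pos, 486.8 on LB_neg, and 418.5, 304.4, 731.8 and 378.2 on EC_pos a to d. For yellow-f2 the probe set 141894_at was at 183.0 on LB_pos, 97.0 on LB_neg and between 20.5 and 51.9 in EC_pos, the reverse order of groups from 142350_at. For PPO2 the probe set 141850_at was at 249.4 on LB_pos, 82.1 on LB_neg and between 22.3 and 147.0 in EC_pos, whereas 142220_at was at 695.9 on LB_pos, 457.9 on LB_neg and between 991.1 and 2501.9 in EC_pos.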
